A study of Mus musculus with 12 samples.

Results

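The zinc finger protein genes described here are the listed genes whose symbol starts with Zfp, Zkscan, Zscan or Zbtb followed by a digit, and they numbered 40 of the 633 genes (6.32%) in the authors' deposited tables of m6A peaks that differed between late and early passage. Mouse embryonic fibroblasts (MEFs), primary cells from embryos whose growth in culture is limited, were compared at passage 9 (P9, senescent) and passage 3 (P3, young), and each passage had 3 libraries of pulled-down RNA (MeRIP) and 3 of input RNA, 12 in all. Both groups were grown in the same medium, and the labels name no genotype, strain or treatment and do not say whether replicates came from separate embryos or isolations, so passage is the only difference they give. In MeRIP-seq, RNA fragments are pulled down with an antibody against m6A, a methyl mark on adenosine, and a stretch of transcript enriched over the input is called a peak.

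C2H2 zinc finger proteins bind DNA through tandem fingers, short loops each folded around a zinc ion, and they form the largest group of transcription factors in mammals. Many carry a KRAB domain, which recruits the co-repressor TRIM28 and through it histone methylation, and such proteins silence transposable elements. The BTB domain of the Zbtb proteins pairs proteins and binds co-repressors, and the SCAN domain of the Zkscan and Zscan proteins pairs them with one another. KRAB zinc finger genes lie in clusters of tandem duplicates, and their fingers are usually encoded by a single long last exon. On mRNA, m6A is laid down by the METTL3 and METTL14 complex and many of its sites lie around the end of the coding sequence.

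A listed peak belongs to 1 transcript and has a fold and a p-value from the authors' own comparison, so a peak shared by several transcripts is listed several times. The fold is a linear ratio that the deposited tables give as Treatment over Control, read here as P9 over P3 since the tallies of higher and lower peaks are the ones reported for that comparison. The sources used here do not say whether the fold was divided by the input, and so whether it is relative to the level of the mRNA, nor do they give the test and any adjustment behind the p-value. The tables hold no values per library, so the depth is unknown and the spread between replicates cannot be given for any value. They list only peaks past a threshold, with folds of at least 1.5 or at most 0.667 and p-values up to 0.0490. The members reached that limit closely, with 1.5 as the lowest fold above 1, 0.660 as the highest below 1 and 0.0479 as the highest p. A gene that is not listed may be unexpressed, unmethylated or unchanged, and these cannot be told apart. None of 10 fibroblast markers and none of 21 markers of other cell types was listed, so the tables could not be used to check the labelled cell type. The label zinc finger protein rests on the gene names, since protein sequences were not used here.

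The 40 genes held 67 of the 1043 listed peaks, 56 of them higher and 11 lower in P9. Merging the listed peaks that share a direction and have overlapping or touching exon blocks, mostly the same stretch on several transcripts, left 43 sites, 36 higher and 7 lower, on 65 transcripts. Of the RefSeq protein-coding genes with such names, 34 of 397 Zfp genes, 5 of 41 Zbtb genes, 1 of 11 Zkscan genes and none of 16 Zscan genes were listed. That is 8.60% of 465 genes, beside 2.67% of 21435 other protein-coding genes. Both totals count genes whether or not they had any peak in MEFs, since the set of genes compared is not given. Only higher peaks were listed for 33 members, only lower peaks for 5 and both kinds for 2. With the peak of smallest p taken for each gene, 35 of 40 members were higher in P9, which is 87.5% beside 80.1% of all listed genes.

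**Figure D1:**
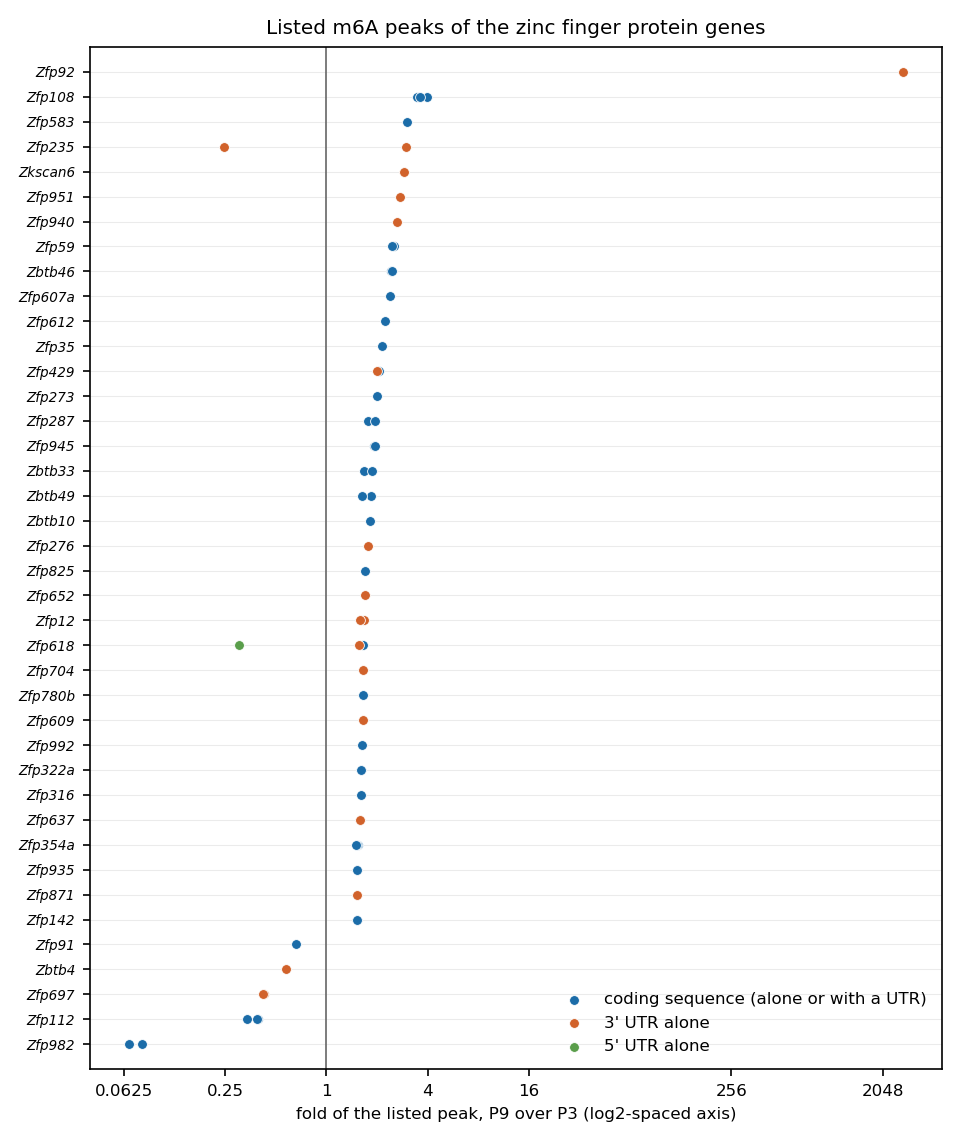
Fold of every listed peak (P9 over P3, log2-spaced axis) for the 40 zinc finger protein genes, 1 point per listed peak, coloured by the part of the transcript it lies in. Most genes sit between 1.5 and 4 on the higher side, Zfp92 stands alone at 2702, and Zfp235 and Zfp618 have points on both sides of 1.

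Of the Zbtb genes, 4 were higher and 1 lower in P9. Zbtb33 encodes Kaiso and Zbtb4 a related protein, and both bind methylated CpG sites in DNA. The Zbtb33 peak, across coding sequence and 3' UTR at chrX:38194141-38194326, was higher, with folds of 1.86 (listed p 0.0195) and 1.68 (listed p 0.0407) on 2 transcripts. The Zbtb4 peak, in the 3' UTR at chr11:69783454-69783634, was lower, with a fold of 0.577 (listed p 0.0468). The pair therefore lay on opposite sides of 1. Zbtb10, whose human counterpart binds variant telomeric repeats, had one of the 5 smallest p-values of the members. Its peak of 539 nt in 2 exon blocks, at chr3:9280460-9281268 across coding sequence and 3' UTR, had a fold of 1.81 (listed p 0.00339) on 1 transcript of 7414 nt. Zbtb46, a marker of classical dendritic cells, was listed for 3 transcripts, the highest number of any member, with coding folds of 2.41, 2.41 and 2.46 (listed p 0.0204 to 0.0234) at chr2:181411795-181423690. Zbtb49, which in human cells activates the cell cycle inhibitor gene CDKN1A, had coding folds of 1.84 and 1.63 on 2 transcripts (listed p 0.0148 and 0.0407).

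Zkscan6 was the one listed gene with a Zkscan or Zscan name, and SCAN domains in other members were not looked for. Its 3' UTR peak of 150 nt at chr11:65829089-65829239 had a fold of 2.91 (listed p 0.0158) on each of 2 transcripts of 2270 and 2302 nt.

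Among the Zfp genes with a higher peak, Zfp92, a KRAB zinc finger gene on the X chromosome, stood apart. Its 3' UTR peak of 180 nt at chrX:73424608-73424787, on 1 transcript of 5767 nt, had a fold of 2702 and a p of 6.31e-28, ranked 1st of 507 higher genes by both. The highest fold among the other listed genes was 14.0. Without values per library, the P9 and P3 levels behind this ratio are not known. Zfp108 had the next highest fold of the members. Its coding peak at chr7:24260529-24260798 had folds of 3.97, 3.63 and 3.48 on 3 transcripts (listed p 0.00676 to 0.0166). Zfp583 followed with a coding fold of 3.03 (listed p 0.0380), from a peak of 241 nt in 3 exon blocks at chr7:6317639-6325456 on 1 transcript of 2550 nt.

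The smallest p-values of the members after that of Zfp92 went with folds of at most 2.06 above 1 and of 0.660 below 1. Zfp91, which encodes a ubiquitin ligase of non-canonical NF-kB signalling, was lower, with a fold of 0.660 (listed p 0.000251) across coding sequence and 5' UTR in 3 exon blocks at chr19:12779075-12795438. Zfp322a, a pluripotency factor of mouse embryonic stem cells, was higher, with folds of 1.60 on both of 2 short transcripts of 986 and 1261 nt (listed p 0.00102 and 0.00112) at chr13:23357061-23357658. Zfp429 was higher, with folds of 2.06 and 2.00 (listed p 0.00178 and 0.00240) at chr13:67390019-67390680. For Zfp429 the same stretch was labelled coding on a transcript of 2056 nt and 3' UTR on one of 2117 nt, the one member site of 19 with several transcripts whose place differed between them. Over those 19 sites the highest fold was at the median 1.02 times the lowest and at most 1.21 times, in Zfp982.

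**Figure D2:**
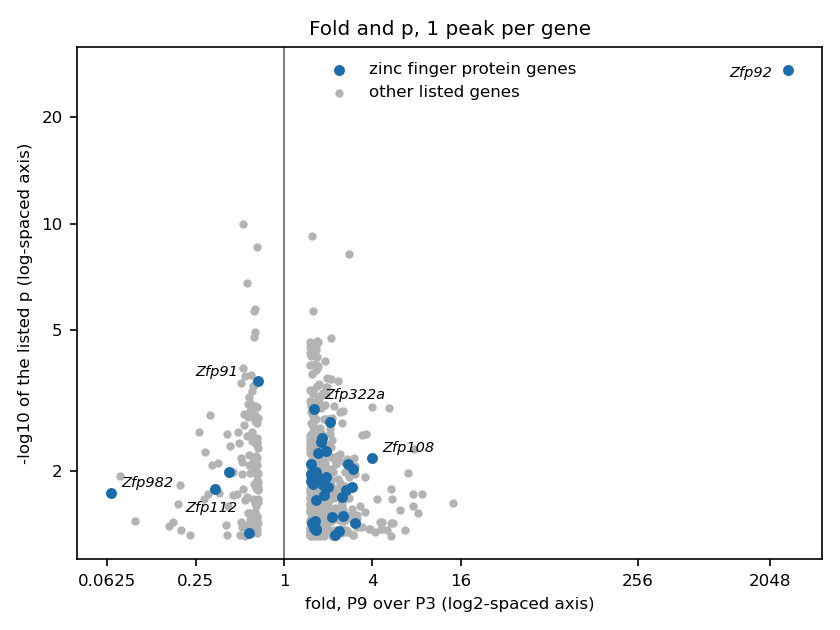
Fold (P9 over P3, log2-spaced axis) against -log10 of the listed p (log-spaced axis) for 1 peak per gene, with the 40 zinc finger protein genes in blue and the 593 other listed genes in grey. Zfp92 lies at 2702 with a p of 6.31e-28, far from every other point, and the remaining members lie within the range of the other genes except Zfp982 at 0.0665, which is just below the lowest fold of the others, 0.0770.

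The other higher members lay between 1.52 and 2.73. In the 3' UTR alone, the fold was 2.73 in Zfp951, 2.62 in Zfp940, 1.77 in Zfp276, 1.69 in Zfp652, 1.66 in Zfp12, 1.66 in Zfp704, 1.64 in Zfp609, 1.58 in Zfp637 and 1.52 in Zfp871. The human counterpart of Zfp652 represses transcription with CBFA2T3, and Zfp609 is a partner of the cohesin loader. In coding sequence alone, the fold was 2.51 in Zfp59, 2.38 in Zfp607a, 2.13 in Zfp35, 1.99 in Zfp273, 1.94 in Zfp945, 1.60 in Zfp316, 1.54 in Zfp354a and 1.52 in Zfp142. Zfp354a, first named Kid-1, is known from the kidney, and like Zfp142 it was listed for 3 transcripts, with folds of 1.5 to 1.54 (listed p 0.0380 to 0.0468) at chr11:51069280-51069863. The Zfp142 folds were 1.52 on all 3 transcripts (listed p 0.0110 to 0.0141) at chr1:74568619-74570211. Across coding sequence and 3' UTR, the fold was 2.22 in Zfp612, 1.94 in Zfp287, 1.71 in Zfp825, 1.65 in Zfp780b, 1.62 in Zfp992 and 1.53 in Zfp935.

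The lower members were fewer and several lay far from 1. Zfp982 had the lowest fold of all 126 lower genes, 0.0665 and 0.0802 on 2 transcripts of 1244 and 1488 nt (listed p 0.0186 and 0.0263), across coding sequence and 3' UTR at chr4:147513242-147513397. Zfp112 had coding folds of 0.337, 0.384 and 0.390 on 3 transcripts (listed p 0.0166 to 0.0282) at chr7:24125226-24125564. Zfp697 had 3' UTR folds of 0.423 and 0.420 on 2 transcripts (listed p 0.0102 and 0.0155) at chr3:98430746-98431258. With Zbtb4 and Zfp91 these made the 5 genes with lower peaks alone. Of these 5, 3 were among the 50 of 126 lower genes farthest from 1. Of 35 higher members, 5 were among the 50 of 507 higher genes farthest from 1.

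Zfp235 and Zfp618 had peaks in both directions, as had 7 of the 593 other genes (5.00% beside 1.18%). In Zfp235 both lay in the 3' UTR of the same transcript of 3373 nt. The upstream one, at chr7:24142286-24142555, was higher with a fold of 2.97 (listed p 0.00933), and the downstream one, at chr7:24143002-24143181, was lower with a fold of 0.247 (listed p 0.0170). Only 446 nt separate them, so the opposite folds sit within one 3' UTR. In Zfp618, whose human counterpart is a partner of UHRF2, the peaks lay on different transcripts. The lower one, with a fold of 0.301 (listed p 0.0117), was in the 5' UTR of a transcript of 1582 nt, spread over 4 exon blocks at chr4:62965633-63079868 and starting 78 nt from the first RefSeq base of the gene. The higher ones lay on a transcript of 8826 nt, with a fold of 1.66 (listed p 0.0105) across coding sequence and 3' UTR at chr4:63133695-63134204 and of 1.57 (listed p 0.0309) in the 3' UTR at chr4:63138571-63138930. No transcript carried both directions in Zfp618.

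**Figure D3:**
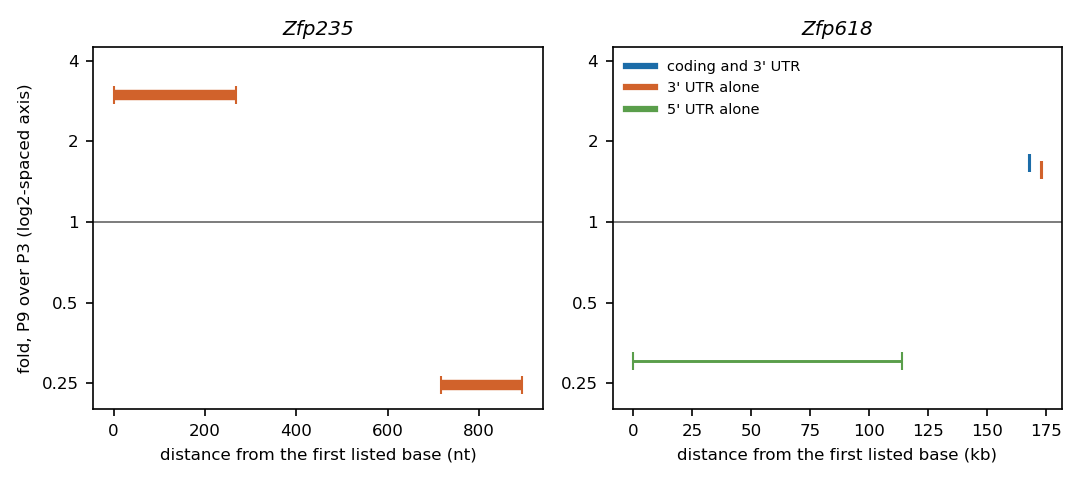
Folds (P9 over P3, log2-spaced axis) of the listed peaks of Zfp235 and Zfp618 against the distance from the first listed base of each gene, in nt for Zfp235 and in kb for Zfp618, with bars spanning each peak (a thin line joins the 4 exon blocks of the Zfp618 5' UTR peak). In Zfp235 the peaks at 2.97 and 0.247 are neighbours in one 3' UTR, and in Zfp618 the lower peak lies at the 5' end and the higher ones at the 3' end.

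Chromosome 7 held 8 of the 40 members (20%), close to its share of all protein-coding genes with such names in RefSeq, 104 of 465 (22.4%), and it held 46 of the 593 other listed genes (7.76%). Across the genome 14 members had another member within 1 Mb, in 10 pairs. In 6 pairs both genes were higher, as in Zfp12 and Zfp316, 0.860 kb apart, in Zfp59, Zfp607a and Zfp780b, in Zfp429 and Zfp273, and in Zbtb10 and Zfp704. Some genes are in several pairs, and 82.5% of all members had only higher peaks, so most pairs could be so. In the other 4 pairs the genes were opposed or 1 of them had both directions. Zfp112, lower, lies 4.42 kb from Zfp235, with both directions, and 126.8 kb from Zfp108, higher. Zfp235 and Zfp108 lie 111.5 kb apart. Zfp992, higher, lies 973.7 kb from Zfp982, lower. Duplicated zinc finger genes have similar sequences, and how reads that map to several of them were treated is not given. Whether neighbours such as Zfp59 and Zfp607a, with folds of 2.51 and 2.38 from peaks of 270 and 269 nt, share reads was not tested. Of the 43 sites, 6 overlapped another RefSeq gene, among them the Zfp276 site, which overlaps Fanca. Fanca was itself listed, with a higher coding peak of fold 1.57 (listed p 0.0427). Whether Zfp276 and Fanca share reads was not tested. The Zfp652 site began 4940 nt past the RefSeq 3' end of its gene. The kit keeps the strand, but whether the counting used it is not given.

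Promoters are printed for 3 of these genes, picked because they share the letters given below and differ in direction. Zfp112 and Zfp108 lie near each other, and Zfp273 lies on another chromosome. Zfp235, nearer to Zfp112, did not carry the letters in the stretch searched and is not printed. The sequences are the stretch before the start of Zfp112, Zfp108 and Zfp273, from RefSeq on GRCm38.p6, plus strand, in lower case with GGGA, 2 further bases and TGTAGT in capitals. They are shown because the lower Zfp112 and the higher Zfp108 and Zfp273 carry the same letters. Zfp108 has 2 matches, of which 1 lies in the printed stretch. These letters were chosen after the promoters had been read.
Zfp112, chr7:24112070-24112319: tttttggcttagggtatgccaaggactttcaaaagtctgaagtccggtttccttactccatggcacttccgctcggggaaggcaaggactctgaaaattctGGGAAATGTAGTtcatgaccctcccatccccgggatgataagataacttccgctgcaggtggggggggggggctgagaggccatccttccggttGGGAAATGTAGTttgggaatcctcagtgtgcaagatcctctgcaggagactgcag
Zfp108, chr7:24254544-24254725: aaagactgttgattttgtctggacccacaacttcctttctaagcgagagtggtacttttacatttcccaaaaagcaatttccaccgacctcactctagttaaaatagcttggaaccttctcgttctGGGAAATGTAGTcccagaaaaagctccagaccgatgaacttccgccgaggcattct
Zfp273, chr13:67813566-67813815: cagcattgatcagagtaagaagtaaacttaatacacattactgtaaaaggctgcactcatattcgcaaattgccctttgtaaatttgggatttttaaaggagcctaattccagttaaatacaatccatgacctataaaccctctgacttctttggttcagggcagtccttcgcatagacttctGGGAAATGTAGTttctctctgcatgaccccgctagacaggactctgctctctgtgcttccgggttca

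The 250 bases before the start given in the table were searched on both strands. The letters were found in 6 of 32 members with a promoter there, namely Zfp112, Zfp108, Zfp273, Zfp429, Zfp780b and Zfp940. That start can lie inside the RefSeq gene span. In Zfp429, Zfp780b and Zfp940 no match lay before the first RefSeq base of the gene. The letters were found in 58 of 387 genes with such names (15.0%), in 22 of 476 other listed genes (4.62%) and in 1.92% of all 27025 genes of the table. Since the letters were picked from promoters that are counted here, these counts are a description of the printed sequences and nothing is read from them. Zfp112 had 2 matches, 149 and 55 nt before the start, and was lower. Zfp108 also had 2 matches and was higher. The other genes with a match were higher too, as were 80.1% of all listed genes. None of the members' listed peaks overlapped a promoter window, as 31 listed peaks did in all. Zbtb10, Zfp276, Zfp35, Zfp354a, Zfp609, Zfp612, Zfp704 and Zfp992 were not matched in the table.

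Set against all other listed genes with 1 peak per gene, the zinc finger protein genes were higher in P9 in 87.5% of 40 genes (95% Clopper-Pearson interval 73.2 to 95.8) beside 79.6% of 593 (76.1 to 82.8). These intervals, which cover the counting of genes only, overlap. The peak lay in coding sequence, alone or with a UTR, in 65.0% of members (48.3 to 79.4) beside 48.4% of the others (44.3 to 52.5), and in the 3' UTR alone in 35.0% (20.6 to 51.7) beside 46.5% (42.5 to 50.6). Among genes higher in P9, coding peaks made up 65.7% of 35 members (47.8 to 80.9) beside 43.0% of 472 others (38.5 to 47.6). Those intervals narrowly miss each other, and neither overlap nor its absence is a test here. Among genes lower in P9 the order was the other way, with coding peaks in 3 of 5 members (60.0%, 14.7 to 94.7) beside 69.4% of 121 others (60.4 to 77.5), and peaks in the 3' UTR alone in 2 of 5 members (40%) beside 14.0% of the others. Peaks across coding sequence and 3' UTR were found in 25% of members and 15.9% of the others. With every peak that touched the 3' UTR counted there, the shares were 60.0% and 62.4%. No member had its chosen peak in the 5' UTR alone, which allows a share of up to 8.81%, beside 5.06% of the others. No test was run on these shares, because the members were chosen with earlier results of the data known.

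**Figure D4:**
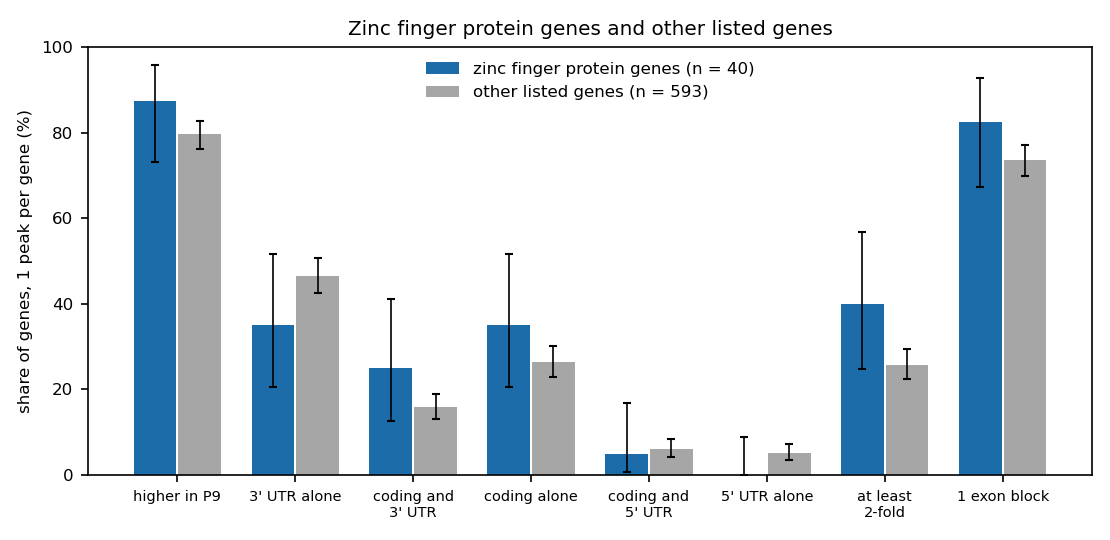
Share of genes (%), 1 peak per gene, with the zinc finger protein genes (n = 40) in blue left of the other listed genes (n = 593) in grey, and bars of error giving the 95% Clopper-Pearson interval. The share higher in P9 is 87.5% beside 79.6%, the share in the 3' UTR alone 35.0% beside 46.5%, and the share with a change of at least 2-fold 40% beside 25.8%.

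With the peak of smallest p taken for each gene, the change was at least 2-fold in 16 members (40%, 24.9 to 56.7) and in 153 other genes (25.8%, 22.3 to 29.5). Over all listed peaks, 17 members and 157 other genes had such a change, the further member being Zfp618 through its lower peak. The median fold of higher peaks was 1.84 (interquartile range 1.65 to 2.42) in the members and 1.73 (1.57 to 2.05) in the others, and that of lower peaks was 0.423 in 5 members and 0.603 in 121 others. The median absolute log2 fold was 0.89 (95% interval of the median 0.73 to 1.15) in members and 0.78 (0.75 to 0.80) in the others. The median listed p was 0.0146 in members (95% interval of the median 0.0105 to 0.0195) and 0.0166 in the others (0.0148 to 0.0186). A p of at most 0.01 was listed for 30% of members and 36.6% of the others, and one of at most 0.001 for 5.00% and 11.3%.

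Peaks of the zinc finger protein genes had a longer median length than those of the other listed genes. The median length over exon blocks was 405 nt (interquartile range 262 to 565.8) in members and 259 nt (180 to 360) in the other genes, with 95% intervals of the median of 270 to 510 and 240 to 270. In coding sequence the medians were 524 nt in 26 members (95% interval of the median 270 to 598) and 300.0 nt in 287 others (270 to 330). In the 3' UTR alone they were 315 nt in 14 members (150 to 420) and 210.0 nt in 276 others (181 to 211). Within each place these intervals overlap. The longest was that of Zfp945, 959 nt of coding sequence, and the shortest that of Zfp35, 91 nt. Transcripts were of similar median length, 3296 nt in members and 3522 nt in the others. The peak lay in 1 exon block in 82.5% of members and 73.5% of the others, and several transcripts were listed for 50% and 35.9%.

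**Figure D5:**
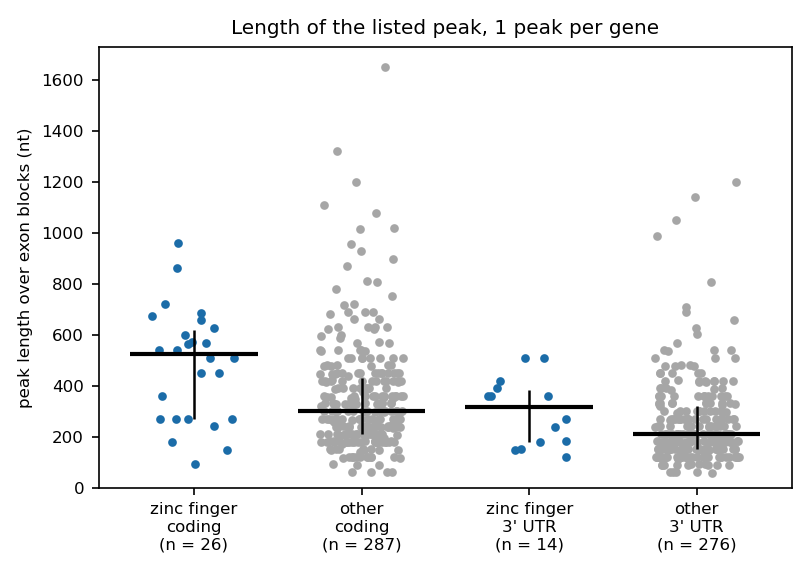
Length of the listed peak over its exon blocks (nt), 1 peak per gene, for peaks in coding sequence and in the 3' UTR alone, with zinc finger protein genes in blue left of other listed genes in grey, a horizontal line at the median and a vertical line over the interquartile range. The medians are 524 and 300.0 nt in coding sequence and 315 and 210.0 nt in the 3' UTR.

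The lists of related genes are read against 2.80% of all protein-coding genes listed and 80.1% of listed genes higher. Of 126 other C2H2 zinc finger regulators, 7 were listed (5.56%), 6 of them higher alone and Mecom in both directions. These 7 are among the 593 other listed genes, as would be any zinc finger gene under another kind of name. Klf5, a factor of proliferating epithelia, had a 3' UTR fold of 2.10 (listed p 0.00646), and Adnp2 a coding fold of 1.72 (listed p 0.0112). Prdm9, which places meiotic recombination sites, had a coding fold of 2.39 (listed p 0.0141). Mecom had a fold of 0.361 (listed p 0.0186) across coding sequence and 3' UTR and coding folds of 1.68 and 1.65 on other transcripts. Of 111 genes of other zinc finger classes, 2 were listed (1.80%), both lower, Zcchc14 with a fold of 0.637 (listed p 0.00912) and Zcchc24 with 0.653 (listed p 0.0112). Of 33 genes chosen around the TRIM28 co-repressor complex, 2 were listed (6.06%), both higher, as most listed genes were. The choice is broader than the subunits of the complex, was matched by symbol and is not complete. The listed ones were Cbx3, a heterochromatin protein, with 3' UTR folds of 1.51 on 2 transcripts (listed p 0.000407), and Morc2a with a 5' UTR fold of 1.51 (listed p 0.00309). None of 29 writers, erasers and readers of m6A was listed, and with lists this short nothing is read from these counts.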

How the data were processed

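MeRIP-seq was performed on MEFs at P9 and P3, with 3 MeRIP and 3 input libraries each. The deposited tables hold, for each listed peak, the authors' linear fold (ratio) of P9 to P3 and the authors' p-value, from their own comparison of the groups. They hold no values per library, so no library was refitted and no test was run. The labels name the build mm10. The sources used here do not give the aligner, peak caller, use of input or adjustment. Starts were counted from 1.

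Listed peaks of the same direction with overlapping or touching exon blocks on a strand were merged into sites. For 1 peak per gene, the peak of smallest p was taken, and a peak with several place labels was put in coding sequence before either UTR. Shares carry 95% Clopper-Pearson intervals, which cover counting error only. RefSeq (GRCm38.p6) gave gene spans for 40 of 40 members and promoters for 32, and promoters were printed only before the first RefSeq base of the gene. Every member was named, with full values for the 5 largest folds above 1, the 5 smallest below 1, the 5 smallest p, members with several sites, and those listed for the most transcripts, where a tie at 3 transcripts left 5 genes. Of other lists, up to 4 genes by smallest p were named. The members and lists were chosen with earlier results of these data known. The scripts were tested on simulated data. The tools were scipy 1.17.1, pandas 2.3.3, numpy 2.4.6 and matplotlib 3.10.9 under Python 3.11.15.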

Additional observations from a re-analysis of the deposited data

How the results depend on the processing

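The share of zinc finger protein genes higher in P9 lay between 76.5% and 91.7% over 8 alternatives, which changed the unit counted, the limits on p and fold, the name rule and the peak taken. It was above that of the other listed genes in each except with changes of at least 2-fold, where it was 76.5% of 17 members beside 82.8% of 157 others. The share in the 3' UTR alone lay between 32.8% and 41.7%, below that of the others in each alternative. Counting every peak that touched the 3' UTR gave 60.0% of members and 62.4% of the others. The median absolute log2 fold lay between 0.83 and 0.90 except with changes of at least 2-fold, where the limit itself moved it to 1.45 in members and 1.32 in the others. Leaving out 1 gene of each pair of neighbours was chosen after seeing the data and gave 87.5%, 37.5% and 0.87 for these results. No paired analysis was possible because the tables hold no values per library. The depth is unknown, and 40 genes leave wide intervals.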
